A study of Bos indicus with 6 samples.

Results

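Matricellular proteins are secreted into the extracellular matrix but act mainly on how cells bind, spread and signal rather than as load-bearing fibers, and fibronectin is the adhesive glycoprotein on which several of them assemble. The 10 genes described here are FN1, the CCN genes CTGF, CYR61 and NOV (CCN2, CCN1 and CCN3 in current nomenclature), the thrombospondins THBS1 and THBS2, SPARC, the tenascins TNC and TNXB, and POSTN. They were found by symbol among the 24616 genes of the deposited isthmus table, each on 1 row, and all 10 passed the filter on low values, as did 15387 genes in all. CCN genes are known as rapidly induced, mechanically responsive targets of YAP/TAZ with TEAD factors, fibronectin and several of the others as targets of TGF-beta, and integrins as their main receptors. In the oviduct, stromal and smooth muscle cells of the wall are among the cells that make such proteins. Bulk tissue does not show which cells made them here.

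The isthmus, the oviduct segment next to the uterus, was taken from 6 healthy multiparous Nelore (Bos indicus) cows, with 1 RNA-seq library per cow and no pooling. In 3 LF/LCL cows (large follicle, large corpus luteum; cows 617, 79 and 527) the intravaginal progesterone (P4) device was removed 42 h before the GnRH agonist, and these cows also received prostaglandin F2 alpha (PGF) when the device was inserted. In 3 SF/SCL cows (small follicle, small corpus luteum; cows 856, 489215 and 97) the device was removed 30 h before GnRH, without that PGF. All cows were pre-synchronized with PGF and a GnRH agonist, were given a P4 device with estradiol benzoate, received PGF at device removal and again later, and were killed on day 4 after the GnRH that induced ovulation. The sequenced cows were the extremes of a ranking on follicle size, corpus luteum area and steroid concentrations, so the groups differ by more than 1 hormone, and the tissue held the whole thickness of the wall. In such bulk tissue, fewer cells of a type and less RNA per cell cannot be told apart.

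Recovered library totals were 23899117 to 34193164 reads. The SF/SCL libraries were not alike: OVGP1, the secretory oviduct glycoprotein, was at 271794 and 325158 normalized counts in cows 856 and 97 and at 287 to 1950 in the other 4 cows, including SF/SCL cow 489215. Cow 489215 held the highest of the 6 values for 36.7% of the genes tested and the lowest for 35.7%. For the 10 genes it held the highest value for CTGF, CYR61, SPARC and POSTN, the lowest for THBS2 and TNXB, and neither for FN1, NOV, THBS1 and TNC. The comparisons of the 10 genes are therefore given with and without this library.

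The 10 genes held 1.89% to 2.10% of the reads in the 3 LF/LCL libraries. The share was 0.802% in cow 856 (exact 95% interval 0.799% to 0.805%, counting error only), 0.737% in cow 97 (0.733% to 0.740%) and 1.93% in cow 489215. By this share 2 SF/SCL cows lay under the LF/LCL range and the third lay inside it. SPARC, POSTN and TNC held most of these reads in every library, with 301544, 121235 and 78531 of 538722 in cow 617. The share and the sums of the 10 genes therefore mainly follow these 3 genes. In normalized counts, which also depend on the size factor (lowest in cow 489215, at 0.751), the sum of the 10 genes was 496335 to 563858 in LF/LCL, 208220 in cow 856 and 190862 in cow 97, and cow 489215 (655474) lay above the LF/LCL range.

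With 6 libraries, 9 of the 10 log2 fold changes (SF/SCL over LF/LCL, limma on normalized counts, log2(value + 1) scale) were negative, with a median of -0.70 beside -0.016 over all genes tested. By limma, 0 of the 10 genes passed a Benjamini-Hochberg adjusted p under 0.05, as did 0% of all genes, the smallest adjusted p being 0.351. At an unadjusted p under 0.05, FN1, TNC, THBS2 and TNXB were lower in SF/SCL and none was higher, against 4.48% of the genes tested that were lower and 4.19% that were higher, and 1333 genes passed in either direction. The same 4 genes were those whose groups did not overlap, with every SF/SCL cow under every LF/LCL cow, which held for 8.6% of all genes. In other tests on recovered reads, edgeR called 0 genes (1307 unadjusted) and DESeq2 called 416, with 1.35% of genes called lower and FN1 the only one of the 10 among them.

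Without cow 489215, limma called FN1, SPARC, TNC, POSTN, CYR61 and TNXB lower in SF/SCL, 6 of the 10, where 7.92% of the genes tested were called lower and 10.3% higher. All 10 fold changes were then negative, with a median of -0.81 beside -0.00092 over all genes. The groups then did not overlap, with SF/SCL lower, for 7 of the 10 genes, the 6 called and THBS2, against 24.9% of all genes. This comparison sets 3 cows against the 2 that resembled each other, and the library was singled out because its values stood apart.

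**Figure D1:**
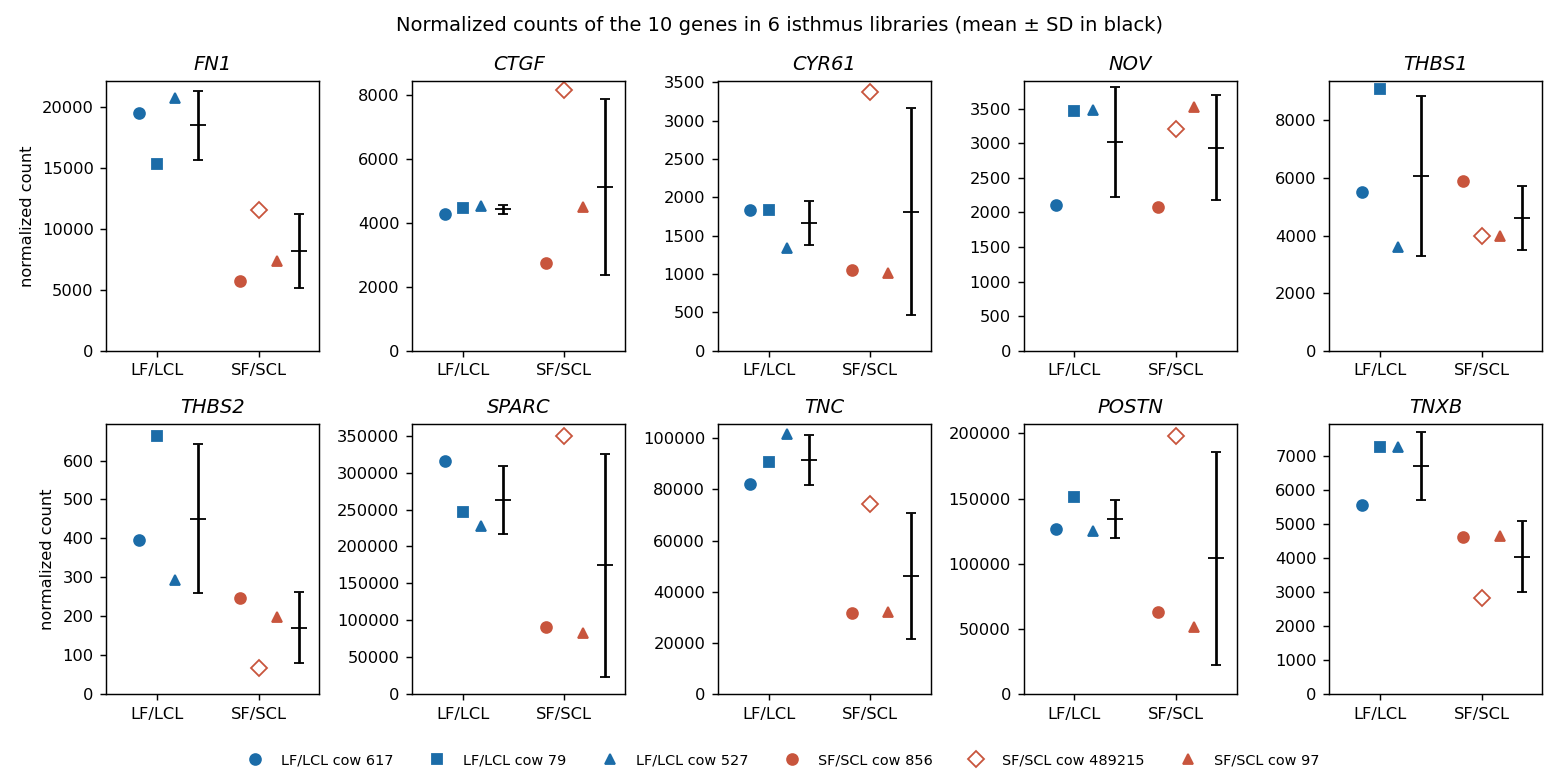
Normalized counts (vertical axes, linear from 0) of each gene in each cow, LF/LCL in blue and SF/SCL in red, with the mean and SD of 3 cows in black and cow 489215 as an open diamond. FN1, TNC, THBS2 and TNXB separate the groups, whereas SPARC, POSTN and CYR61 are low in cows 856 and 97 and highest in cow 489215.

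FN1 encodes fibronectin, which binds integrins, collagens and several of the other proteins described here. Its normalized counts were 19495, 15331 and 20724 in LF/LCL cows 617, 79 and 527, and 5707, 11574 and 7346 in SF/SCL cows 856, 489215 and 97. The lowest LF/LCL cow stood above the highest SF/SCL cow. The means were 18517 ± 2826 and 8209 ± 3027 (SD, n = 3 each). The log2 fold change was -1.22 (SE 0.30, limma adjusted p = 0.381). An exact two-sided permutation test gave p = 0.1, the smallest that 3 cows against 3 allow, for FN1 and likewise for TNC, TNXB and THBS2, and 0.4 to 1.0 for the other 6 genes. DESeq2 gave an adjusted p of 0.0306, and limma without cow 489215 gave -1.50 (SE 0.17, adjusted p = 0.00380).

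TNC encodes tenascin-C, a hexameric glycoprotein that binds fibronectin and modulates adhesion to it. It had 82195, 90628 and 101525 normalized counts in LF/LCL cows 617, 79 and 527, and 31822, 74506 and 32103 in cows 856, 489215 and 97. The groups did not overlap, but cow 489215 lay much closer to the LF/LCL cows than to its own group. The means were 91449 ± 9691 and 46144 ± 24563 (SD, n = 3 each). The TNC log2 fold change was -1.10 (SE 0.38, limma adjusted p = 0.485). Without cow 489215 the change was -1.51 (SE 0.11, limma adjusted p = 0.00205), the LF/LCL mean being 2.86-fold that of cows 856 and 97. In the RefSeq annotation of another assembly TNC overlaps a long noncoding RNA, and the counting strand is not stated, so reads of both may be included.

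TNXB encodes tenascin-X, a tenascin of connective tissue that associates with collagen fibrils. It had 5544, 7261 and 7277 normalized counts in cows 617, 79 and 527, and 4606, 2832 and 4659 in cows 856, 489215 and 97. All SF/SCL cows were lower than all LF/LCL cows, and here cow 489215 was the lowest. The means were 6694 ± 996 and 4032 ± 1040 (SD, n = 3 each). For TNXB the log2 fold change was -0.76 (SE 0.26, limma adjusted p = 0.476). Without cow 489215 it was -0.52 (SE 0.14, limma adjusted p = 0.0469). TNXB overlaps CYP21A2, a steroid 21-hydroxylase gene, in the same annotation, and the same limit on strand holds.

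The thrombospondins are calcium-binding multimers that regulate adhesion, angiogenesis and the activation of latent TGF-beta, and the latter is known for THBS1. THBS2 had the lowest normalized counts of the 10 genes, uncorrected for transcript length, with 396, 664 and 293 in cows 617, 79 and 527, and 245, 67.9 and 197 in cows 856, 489215 and 97. Its groups did not overlap, although the lowest LF/LCL cow and the highest SF/SCL cow were close, and cow 489215 (51 reads, exact 95% Poisson interval 38.0 to 67.1) was far under the rest. The log2 fold change was -1.51 (SE 0.56, limma adjusted p = 0.515), and -0.95 (SE 0.34, limma adjusted p = 0.105) without that cow. THBS1 had 5512, 9076 and 3614 normalized counts in LF/LCL cows 617, 79 and 527, and 5889, 3983 and 3974 in SF/SCL cows 856, 489215 and 97. The THBS1 values of the groups were interleaved, and the log2 fold change was -0.32 (SE 0.36, limma adjusted p = 0.874). Without cow 489215 it was -0.23 (SE 0.37, limma adjusted p = 0.716), and without cow 79 it was 0.023.

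SPARC encodes a collagen-binding glycoprotein (osteonectin) and POSTN encodes periostin, which binds collagen, fibronectin and tenascin-C. SPARC had 315614, 246183 and 228157 normalized counts in LF/LCL cows 617, 79 and 527, and 91337, 349536 and 82223 in SF/SCL cows 856, 489215 and 97. POSTN had 126892, 151479 and 125390 in the LF/LCL cows, and 62725, 198258 and 51324 in the SF/SCL cows, in the same order. For both genes, cows 856 and 97 lay under all LF/LCL cows and cow 489215 lay above them all. The SF/SCL means therefore carried large SDs, 174365 ± 151770 for SPARC and 104102 ± 81741 for POSTN, beside LF/LCL means of 263318 ± 46178 and 134587 ± 14648 (SD, n = 3 each). With 6 libraries neither log2 fold change passed the limma test, at -0.92 (SE 0.59, adjusted p = 0.758) for SPARC and -0.64 (SE 0.53, adjusted p = 0.832) for POSTN. Without cow 489215, SPARC was lower by a log2 fold change of -1.59 (SE 0.16, limma adjusted p = 0.00283) and POSTN by -1.24 (SE 0.13, limma adjusted p = 0.00360). The LF/LCL means were then 3.03-fold and 2.36-fold those of cows 856 and 97.

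**Figure D2:**
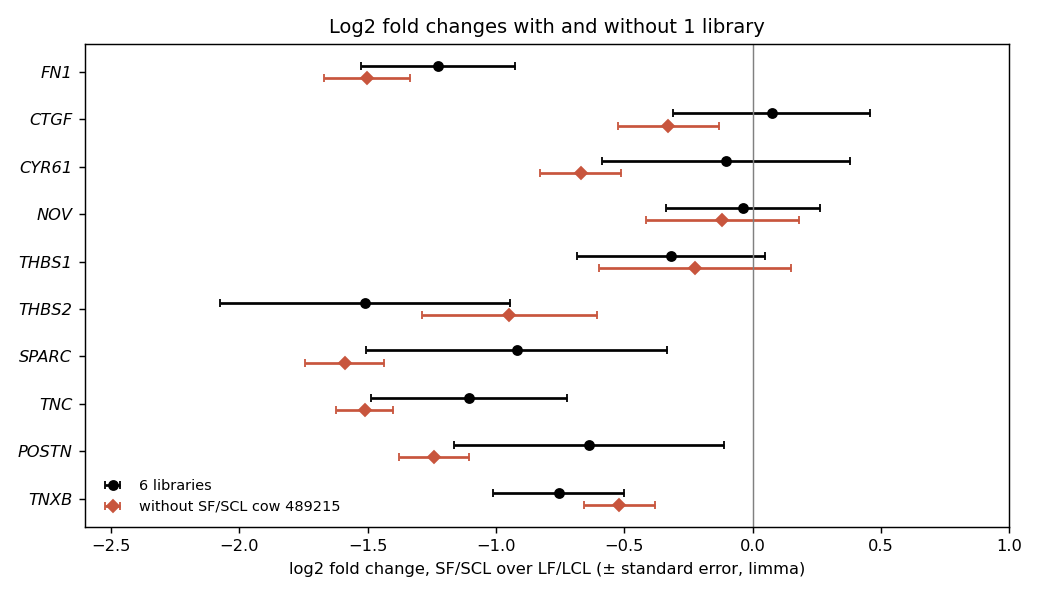
Log2 fold changes of the 10 genes (horizontal axis, SF/SCL over LF/LCL, bars are limma standard errors) with 6 libraries (black) and without cow 489215 (red). The standard errors of SPARC, TNC, POSTN and CYR61 shrink most, and all 10 red points lie at negative values.

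The CCN proteins bind integrins and heparan sulfate proteoglycans, CTGF and CYR61 being typical products of stretched or growth factor-stimulated cells. CYR61 had 1835, 1829 and 1339 normalized counts in LF/LCL cows 617, 79 and 527, and 1054, 3372 and 1019 in SF/SCL cows 856, 489215 and 97. It followed the order of SPARC and POSTN in the SF/SCL cows, with cow 489215 highest of all. Its log2 fold change was -0.10 (SE 0.48, limma adjusted p = 0.967) with 6 libraries, 0.082 by edgeR and 0.12 by DESeq2, so its direction depended on the tool. It was -0.67 (SE 0.16, limma adjusted p = 0.0338) without cow 489215, and 0.17 and 0.19 without cow 856 and cow 97, respectively.

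CTGF had 4275, 4452 and 4531 normalized counts in the LF/LCL cows 617, 79 and 527, and 2750, 8143 and 4494 in cows 856, 489215 and 97. The LF/LCL cows were nearly equal (4419 ± 131, SD, n = 3), whereas the SF/SCL cows spread on both sides of them (5129 ± 2752, SD, n = 3), with cow 97 inside the LF/LCL range. The log2 fold change was 0.074 (SE 0.38, limma adjusted p = 0.969), and -0.33 (SE 0.20, limma adjusted p = 0.291) without cow 489215, so the sign depended on that library. NOV, the CCN member that often opposes CTGF in fibrosis models, had 2102, 3470 and 3483 normalized counts in the LF/LCL cows and 2084, 3202 and 3521 in SF/SCL cows 856, 489215 and 97. Each group held 1 cow near the bottom of this range and 2 near its top. The NOV log2 fold change was -0.037 (SE 0.30, limma adjusted p = 0.980), -0.12 (SE 0.30, limma adjusted p = 0.815) without cow 489215, and 0.082 without cow 79, 0.085 without cow 527 and 0.19 without cow 856.

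**Figure D3:**
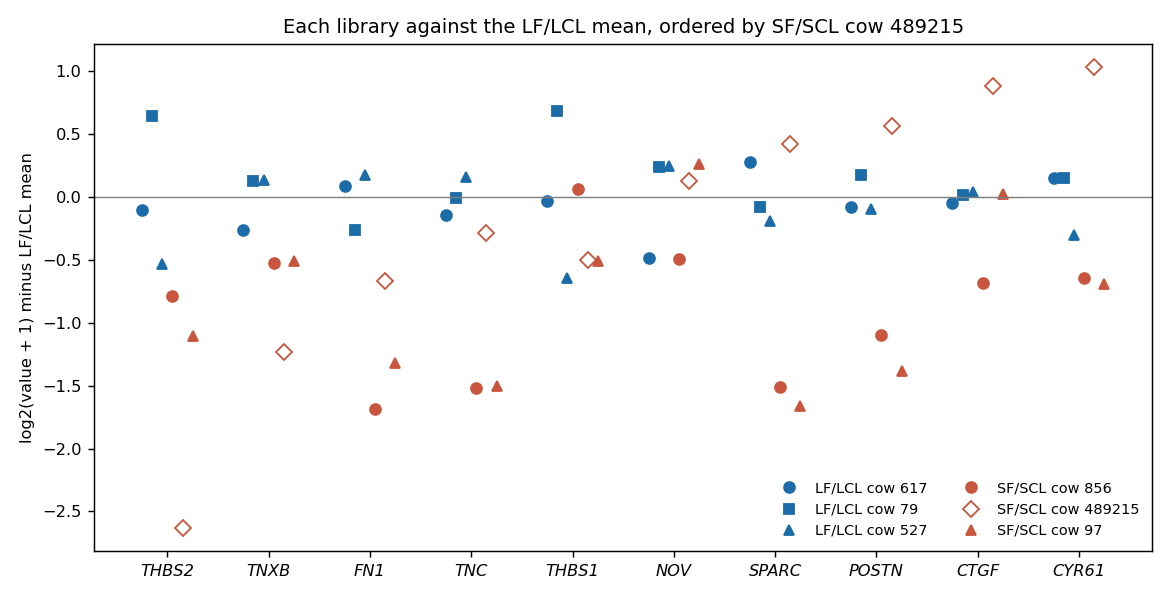
Difference of each library from the LF/LCL mean on the log2(value + 1) scale (vertical axis) for the 10 genes. They are ordered from left to right by cow 489215 (open diamonds), except that TNC (-0.29) stands before THBS1 (-0.51). Cow 489215 runs from far below 0 for THBS2 to about 1 for CYR61, whereas cows 856 and 97 are both below 0 for FN1, TNC, TNXB, THBS2, SPARC, POSTN and CYR61.

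Across the 6 libraries some of the 10 genes had like profiles, given here as a description because the points share the group difference and cow 489215. Pearson's r of log2(value + 1) was 0.96 for SPARC with POSTN, 0.95 for FN1 with TNC, 0.91 for THBS2 with TNXB, 0.90 for CYR61 with POSTN and 0.83 for CTGF with CYR61. Paralogs were not always alike, since r was 0.38 for TNC with TNXB, 0.12 for CYR61 with NOV and 0.69 for THBS1 with THBS2. SPARC and TNXB, which both meet fibrillar collagens, had r of -0.0084.

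Among the genes that passed the filter, the profiles most like that of FN1 belonged to OGDH, a subunit of the 2-oxoglutarate dehydrogenase complex, FGFR1, a fibroblast growth factor receptor, DMPK, a kinase of muscle, SEPHS2 and BRSK1, with r of 0.989 to 0.994 over the 6 libraries. FGFR1 had 3240, 2961 and 3302 normalized counts in cows 617, 79 and 527, and 1717, 2633 and 2071 in cows 856, 489215 and 97, which is the order of cows seen for FN1. Those most like CYR61 were BZW2, bta-mir-2382, FITM2, PRCC and PSMD14 (r of 0.997 to 0.999), and those most like CTGF were TMEM27, AAMDC, NTHL1, CMTM7 and TUBGCP3 (r of 0.987 to 0.992). All 10 of the genes named for CYR61 and CTGF had their highest value in cow 489215, so these r values rest largely on that library.

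The summed markers of the wall layers were also low in cows 856 and 97. The summed level of the 9 smooth muscle markers found (MYH11, ACTA2, TAGLN, CNN1, DES, LMOD1, MYLK, SMTN and SYNM) in cows 856 and 97 averaged 0.467 of the LF/LCL mean, and in cow 489215 it was 1.48 times that mean. The sum ran from 802015 to 924578 in LF/LCL, and was 366997 in cow 856 and 433086 in cow 97. Single muscle markers were divided in cow 489215. ACTA2 (533926), TAGLN (270402), CNN1, DES and SMTN were above every other cow there. MYH11 (116653), MYLK (47882) and SYNM (4730) were under every LF/LCL cow, and LMOD1 was inside the LF/LCL range. For 10 fibroblast markers (among them PDGFRA, DCN and LUM) the sum ran from 88914 to 120125 in LF/LCL, and was 56485, 85075 and 57816 in cows 856, 489215 and 97. All 9 muscle genes and all 10 fibroblast genes had negative log2 fold changes, of which 2 and 4, respectively, were at an unadjusted p under 0.05 by limma and 0 past the adjusted threshold. Without cow 489215, 8 of the 9 muscle genes and 6 of the 10 fibroblast genes passed the adjusted threshold by limma, all lower in SF/SCL, with medians of -1.05 and -0.89. Over all genes tested, 4.48% were lower at that unadjusted p, and 7.92% were called lower without cow 489215.

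The summed epithelial and mesothelial markers were higher in cows 856 and 97 than in LF/LCL. The 8 ciliated cell markers, with PIFO at 0 in every library, summed to 13541 to 17270 in LF/LCL, 34041 in cow 856, 11074 in cow 489215 and 35630 in cow 97. General epithelial markers without OVGP1 summed to 30174 to 47191 in LF/LCL and to 52678, 77232 and 59805 in the SF/SCL cows, in the order 856, 489215 and 97. This sum was thus highest in cow 489215, although PAX8 there (469) was under every LF/LCL cow (503 to 663). Not every marker followed it in cows 856 and 97. KRT19 (4858 and 6602) was inside the LF/LCL range (3270 to 7332), and CLDN4 (344 and 457) was not above its LF/LCL range (440 to 1074). MUC1 in cow 856 (2782) and CLDN3 in cow 97 (4914) were also inside their LF/LCL ranges (1639 to 2866 and 3613 to 5447). The 7 mesothelial markers averaged 8.81 times the LF/LCL mean in cows 856 and 97, but this came from MSLN (808 to 1871 in LF/LCL, 17590 and 18098 in cows 856 and 97) and WT1, whereas LRRN4 and BNC1 were lower in all SF/SCL cows. Endothelial sums were 14536 to 18511 in LF/LCL and 12030 to 17799 in SF/SCL, leukocyte sums 2521 to 4026 and 2279 to 3745, and erythrocyte sums at most 25.3 in any library. The part of tissue makeup in the values of the 10 genes was not tested by a model.

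**Figure D4:**
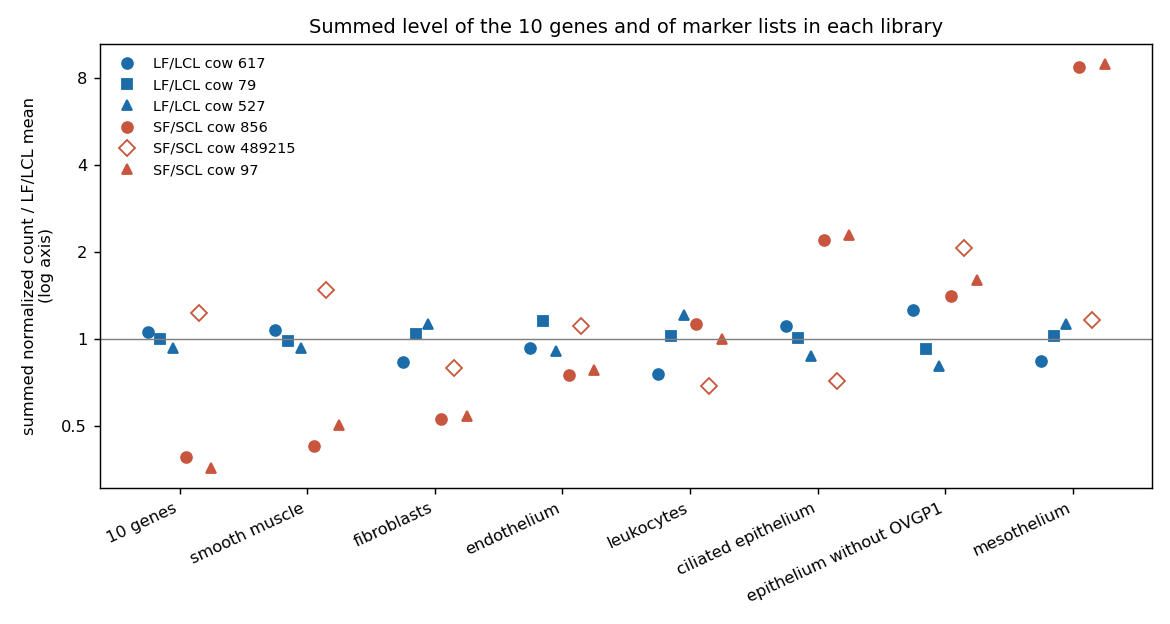
Summed normalized counts of the 10 genes and of marker lists in each cow, divided by the LF/LCL mean (vertical axis, log scale). The sums of the 10 genes (mostly SPARC, POSTN and TNC) and of the smooth muscle markers are under every LF/LCL cow in cows 856 and 97. Both sums are above every LF/LCL cow in cow 489215. Ciliated and mesothelial sums are high in cows 856 and 97.

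Set against the smooth muscle sum of the same library, the 10 genes together came to 61.0%, 62.8% and 61.9% in LF/LCL cows 617, 79 and 527, and to 56.7%, 51.6% and 44.1% in cows 856, 489215 and 97. All SF/SCL cows were under all LF/LCL cows on this scale, including cow 489215, whose unscaled sum was above every LF/LCL cow and whose smooth muscle sum was the highest of the 6. For cow 489215 this order depended on the markers summed, ACTA2 and TAGLN being the largest. Its MYH11 (116653) and MYLK (47882) values were under every LF/LCL cow. Per MYH11 or MYLK alone, its 10-gene sum would therefore lie above every LF/LCL cow. Per fibroblast sum the groups overlapped, at 634%, 478% and 413% in LF/LCL and at 369%, 770% and 330% in cows 856, 489215 and 97, with cow 489215 highest of all. Of single genes, FN1, SPARC and TNC were lower in SF/SCL without overlap per smooth muscle sum, as were 0.916% of all genes tested. CTGF and CYR61 were higher without overlap, as were 16.0% of all genes. The SPARC order also depended on the markers summed, since SPARC in cow 489215 (349536) was above every LF/LCL cow. Per MYH11 or MYLK alone it would therefore lie above them all. FN1 and TNC were not set against single markers. CTGF was 0.462%, 0.527% and 0.565% of the muscle sum in the LF/LCL cows and 0.749%, 0.641% and 1.04% in SF/SCL cows 856, 489215 and 97, and CYR61 was 0.198%, 0.217% and 0.167% against 0.287%, 0.265% and 0.235%. Per fibroblast sum FN1 was again lower without overlap (0.845% of all genes), CTGF and NOV were higher without overlap (40.5% of all genes), and the other 7 genes overlapped. These ratios are descriptions, since the denominators differ between the groups themselves.

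Relatives of the 10 genes, from a list of other CCN, thrombospondin, SPARC-like, tenascin, TGFBI and osteopontin genes, had a like direction. Of 17 listed, 16 were found and 13 tested, of which 11 had negative log2 fold changes (median -0.75). At an unadjusted p under 0.05, 2 were lower, beside 4.48% of all genes. SMOC2, a SPARC-family modulator of growth factor signaling, had 797, 924 and 616 normalized counts in LF/LCL cows 617, 79 and 527, and 275, 375 and 442 in cows 856, 489215 and 97, with a log2 fold change of -1.10 (limma adjusted p = 0.387). WISP1, another CCN gene, was scarcer, at 51.3, 58.2 and 39.5 against 21.3, 5.32 and 15.2 (-1.93, limma adjusted p = 0.424). SPOCK1, a testican proteoglycan, gave -1.06 (limma adjusted p = 0.616), because cow 489215 (9405) lay among the LF/LCL cows (7173 to 11205), unlike cows 856 (3003) and 97 (3025). Without cow 489215, 7 relatives passed the adjusted threshold, all lower in SF/SCL: WISP1, COMP, SPARCL1, SPOCK1, SMOC1, SMOC2 and FSTL1. The share of all genes called lower in that fit was 7.92%.

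Receptors were divided. Of 14 receptor genes tested, 11 had negative fold changes (median -0.56). At an unadjusted p under 0.05, 2 were lower and 1 higher, beside 4.48% and 4.19% of all genes. ITGA8, the integrin alpha chain of smooth muscle that binds fibronectin and tenascin-C, had 4778, 5150 and 3700 normalized counts in the LF/LCL cows and 1937, 1867 and 1651 in cows 856, 489215 and 97. The groups were far apart and cow 489215 did not stand out, with a log2 fold change of -1.31 (SE 0.19, limma adjusted p = 0.351). ITGA9, which forms a tenascin-C receptor, gave -1.60 (limma adjusted p = 0.420). CD36, a thrombospondin receptor, had 318, 319 and 314 normalized counts against 487, 397 and 503 (0.53, limma adjusted p = 0.558). Without cow 489215, ITGA5, ITGA8, ITGAV and ITGB1 passed as lower, and ITGB5, ITGB6, ITGB8, CD36 and CD47 as higher in SF/SCL, 4 and 5 of the 14 tested, beside 7.92% and 10.3% of all genes.

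TGF-beta genes were tested for 14 of 14 listed, with 11 negative fold changes and a median of -0.51. At an unadjusted p under 0.05, 5 were lower, beside 4.48% of all genes. LTBP2, an LTBP family protein of elastic microfibrils, had 5280, 4967 and 4768 normalized counts in cows 617, 79 and 527 and 2513, 1823 and 1940 in cows 856, 489215 and 97 (-1.27, SE 0.18, limma adjusted p = 0.351). LTBP1, which tethers latent TGF-beta to a fibronectin-rich matrix, had 10900, 12901 and 16073 against 6664, 7699 and 6285 (-0.94, SE 0.21, limma adjusted p = 0.372). TGFB3, a ligand, gave -0.79 (SE 0.25, limma adjusted p = 0.454). For all 3 genes every SF/SCL cow was under every LF/LCL cow, as for 8.6% of all genes tested. These 3 were named for their small unadjusted p, which favors such separation. Without cow 489215, 6 genes of this list passed, all lower in SF/SCL: TGFB2, TGFB3, LTBP1, LTBP2, TGFBR2 and SMAD7. In that fit 7.92% of all genes were called lower.

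CCN genes are themselves regulated by YAP/TAZ and by early response factors. In the list of YAP/TAZ, TEAD and genes they regulate, YAP1 was not found by symbol. Of 14 rows tested, 11 had negative fold changes (median -0.37). NUAK2 stood on more than 1 row and was counted in both directions, at 0.51 and -0.45. At an unadjusted p under 0.05, 0 rows were lower and 1 higher, beside 4.48% and 4.19% of all genes. The higher gene was TEAD2, a DNA-binding partner of YAP and TAZ, with 1482, 1144 and 1446 normalized counts in LF/LCL and 2261, 2116 and 2264 in SF/SCL (0.71, SE 0.18, limma adjusted p = 0.381). WWTR1, which encodes TAZ, gave -0.68 and LATS2, a kinase that restrains YAP and TAZ, -0.43 (limma adjusted p = 0.588 and 0.663). Without cow 489215, TEAD2 passed as higher and TEAD3 as lower, where 10.3% of all genes were called higher and 7.92% lower. Of 16 immediate early genes tested, 6 had negative and 10 positive fold changes (median 0.15). At an unadjusted p under 0.05, 3 were lower and 1 higher, beside 4.48% and 4.19% of all genes. SRF, a factor that binds CArG boxes of muscle and early response genes, had 3900, 4087 and 3201 normalized counts against 2501, 2012 and 2172 in cows 856, 489215 and 97 (-0.74, SE 0.18, limma adjusted p = 0.381). The zinc finger genes EGR3 and EGR2 gave -2.47 and -1.95 (limma adjusted p = 0.351 and 0.405) from low levels, EGR3 having at most 29.1 normalized counts in any library. Without cow 489215, EGR3 (-2.52) and SRF (-0.67) passed the adjusted threshold as lower and FOSL2 (0.80), an AP-1 subunit, as higher (limma adjusted p = 0.0160, 0.0202 and 0.0313). The shares of all genes called in that fit were 7.92% lower and 10.3% higher.

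**Figure D5:**
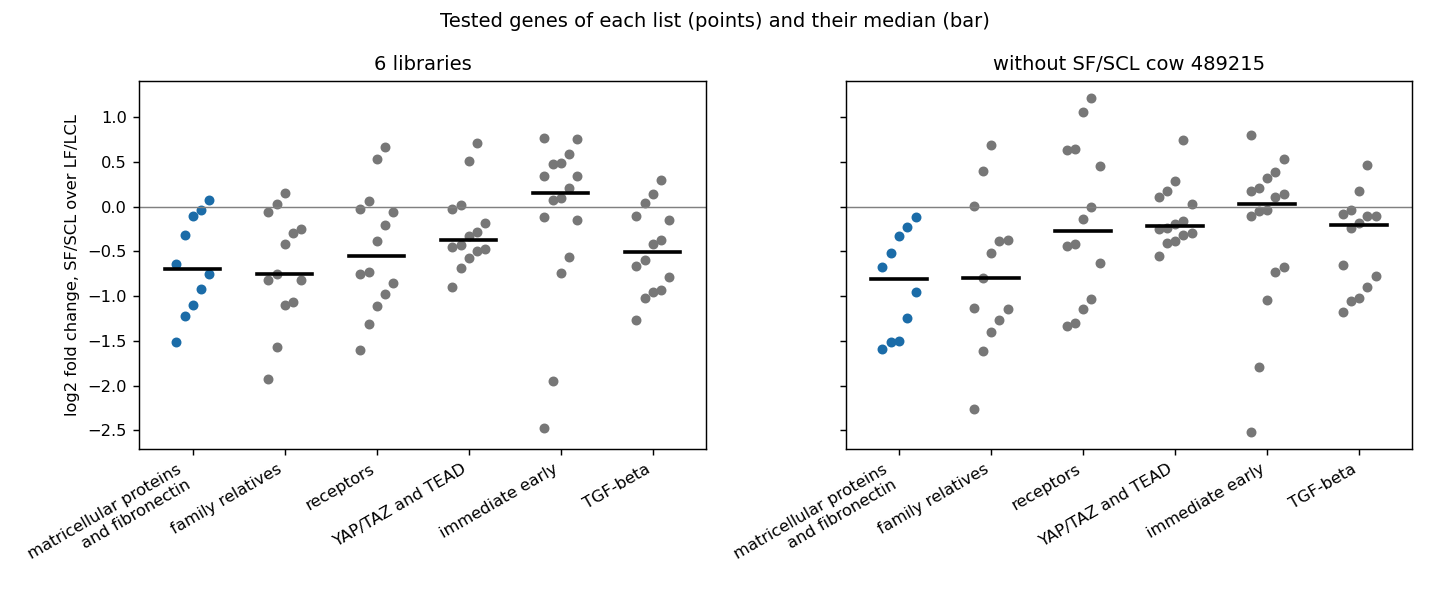
Log2 fold changes (vertical axis, SF/SCL over LF/LCL) of the tested genes in the group of 10 (blue) and in 5 related lists (grey), with 6 libraries (left) and without cow 489215 (right), where bars are medians. The medians of the 10 genes and of their relatives are the lowest in both panels, at -0.70 and -0.75 with 6 libraries.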

How the data were processed

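Polyadenylated RNA of 6 isthmus samples was sequenced as paired ends. The authors aligned filtered reads to the masked UMD 3.1 genome (TopHat 2.0.8, Bowtie2 2.1.0), counted them per gene with HTSeq 0.5.4p2 and deposited a signal, the counts divided by DESeq 1.12.1 size factors. The values were whole multiples of 1 step per library for 100% of values (tolerance 0.005 plus 1e-06 of the value), which returned the reads. Genes with a mean above 5 and above the SD were tested with limma 3.58.1 (trend, robust) on log2(value + 1), a pseudocount that understates changes of low genes, with Benjamini-Hochberg adjustment over 15387 genes. Recovered reads were tested with edgeR 4.0.16 (quasi-likelihood) and DESeq2 1.42.0. Scripts were tested on simulated data. The 10 genes and the lists were chosen with earlier results of these data known, and 1 gene of a list is not reported here. Named genes were the 10, up to 3 genes of each list by unadjusted p, and 5 genes by Pearson's r for FN1, CYR61 and CTGF; genes called without cow 489215 were named after their values were seen. Alternatives were pseudocounts of 0.5 and 5, other filters, TMM rescaling and leaving out each cow; the tests on reads without cow 489215 were added after seeing the data. The RefSeq annotation was of another assembly, so no positions or gene lengths were used, and levels were not compared between genes per length.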

Additional observations from a re-analysis of the deposited data

How the results depend on the processing

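Most calls depended on leaving out cow 489215. Genes past the adjusted threshold numbered 0 by limma, 416 by DESeq2 with 6 libraries, 2805 by edgeR and 3938 by DESeq2 when that cow was left out, and 0 to 2827 when each cow was left out of limma. Of the 10 genes, 1 passed by DESeq2 with 6 libraries, 6 by edgeR and 7 by DESeq2 without that cow, and 0 to 6 with each cow left out. At an unadjusted p, 7 passed by either tool without that cow, and 1 to 7 with each cow left out (2 without cow 617, 1 without cow 79 and 2 without cow 527). Genes of the related lists past the adjusted threshold numbered 7 by DESeq2 with 6 libraries, 25 by edgeR and 31 by DESeq2 without that cow, and 0 to 27 with each cow left out. Those of the 10 without overlap numbered 4 to 7, the 7 being without cow 489215. Over all genes, 24.9% were then lower in SF/SCL without overlap, beside 8.6% with 6 libraries. By limma without that cow, 7.92% of all genes were called lower and 10.3% higher. At an unadjusted p with 6 libraries, 4.48% of all genes were lower and 4.19% higher. That unadjusted share was not counted for the fits with a cow left out. Signs turned for 4 genes, and the cause was not tested. With each cow left out, CTGF ran from -0.33 (without cow 489215) to 0.45, CYR61 from -0.67 to 0.19 (positive without cow 856, 0.17, or cow 97), NOV from -0.28 to 0.19 (positive without cow 79, 0.082, cow 527, 0.085, or cow 856) and THBS1 from -0.64 to 0.023 (without cow 79). On recovered reads CYR61 was 0.082 by edgeR and 0.12 by DESeq2, and without cow 489215 CTGF was -0.29 by both. Pseudocounts, filters and TMM rescaling turned no sign. The fewest reads behind a value of the 10 genes were 51 (THBS2 in cow 489215). No paired analysis was possible because the groups share no replicate numbers.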

Other observations

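Values of 5 other genes of the related lists, named after their values were seen, are given here. DUSP1, an immediate early phosphatase, had 3071, 3770 and 3541 normalized counts in LF/LCL cows 617, 79 and 527, and 4302, 8184 and 5807 in SF/SCL cows 856, 489215 and 97. Its groups did not overlap, with a log2 fold change of 0.77 (SE 0.26, limma adjusted p = 0.480). CD47, a thrombospondin receptor, was at 4947 to 5236 in LF/LCL, at 12920 and 11001 in cows 856 and 97, and at 3786 in cow 489215. ITGAV, the alpha chain of several matrix-binding integrins, was at 2766 to 3296 in LF/LCL, at 2301 and 2171 in cows 856 and 97, and at 553 in cow 489215, whereas its partner ITGB1 in that cow (62657) lay inside the LF/LCL range (48534 to 91010). SPARCL1, the close relative of SPARC, was at 176331 to 225955 in LF/LCL, at 106254 and 66138 in cows 856 and 97, and at 208623 in cow 489215, inside the LF/LCL range where SPARC was above it.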
